A study of Homo sapiens with 8 samples.

Results

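The genes described here were 34 established target genes of the transcription factor p53, chosen by name from the 43317 gene names on the array, and all 34 had at least 1 probe. They were measured on 8 two-colour Agilent arrays, 4 for HCT116 (a human colon cancer line) and 4 for PANC-1 (a human pancreatic cancer line). Each array set Cy5-labelled RNA from a culture that had received a single mature miRNA by a lipid reagent against Cy3-labelled RNA from mock cells, which the labels call not transfected and the study's methods describe as given no precursor. HCT116 received a strand of the miR-139 or of the miR-143 precursor, and PANC-1 a strand of miR-30c-2 or of miR-30a. No array held cells given a control miRNA, so the sequence of a miRNA and the delivery of any small RNA cannot be told apart within an array. The transfected RNA was in Cy5 on all 8 arrays, with no dye swap. A difference between the dyes at a probe and an effect of the transfection therefore cannot be told apart, also where a gene was above mock on every array.

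The protein p53 is kept scarce in unstressed cells by the ubiquitin ligase MDM2, and damage or other stress stabilises it. Stabilised p53 binds paired half-sites in DNA and switches on genes that stop the cell cycle, repair DNA, adjust metabolism or kill the cell, together with genes such as MDM2 and PPM1D that switch p53 off again. Much of p53-linked repression is indirect, through CDKN1A and the DREAM complex, which holds down genes of replication and mitosis. Several of these targets are also induced without p53, for example GDF15 and SESN2 by the factor ATF4.

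The 8 transfected miRNAs are shown because they define the arrays. The sequences are those of RefSeq, 5′ to 3′, with the seed (bases 2 to 8), which pairs with target transcripts, in capitals.
miR-139-5p: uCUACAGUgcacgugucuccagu
miR-139-3p: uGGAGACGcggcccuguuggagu
miR-143-5p: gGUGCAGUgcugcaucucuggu
miR-143-3p: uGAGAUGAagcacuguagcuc
miR-30c-5p: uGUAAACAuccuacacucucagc
miR-30c-2-3p: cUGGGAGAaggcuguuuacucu
miR-30a-5p: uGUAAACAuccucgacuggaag
miR-30a-3p: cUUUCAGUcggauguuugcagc
The guide strands miR-30c-5p and miR-30a-5p share 1 seed, and the other 6 seeds differ from it and from each other. Among the 49 probes of the p53 targets, a heptamer complementary to bases 2 to 8, or to bases 2 to 7 followed by an A, was found in 2. One was in the DRAM1 probe for miR-143-5p, acatctctCTGCACAattagattg, and the other in the SESN2 probe for miR-30c-2-3p, cgcagatgTCTCCCAAaaagttga, where capitals mark the match. DRAM1 was at a log2 ratio of 0.28 with miR-143-5p, and SESN2 was at -0.24 with miR-30c-2-3p. The probes cover a small part of each transcript, so matches elsewhere were not searched for here.

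All 8 arrays lay on 1 slide, with the HCT116 arrays in one column and the PANC-1 arrays in the other, so the line and the place on the slide cannot be told apart. Repeat spots of 300 probes gave a median SD of 0.0393 to 0.0647 on the log2 scale per array, which covers the hybridisation only. Each miRNA was on 1 array, so no ratio below has a replicate or a test, and a gene was counted as higher or lower at a ratio of 2-fold or more (at least 1 on the log2 scale) when the signal of its probe stood well above background in 1 or both channels. The labelled lines were checked on markers in the mock channels. All 4 epithelial markers were higher in HCT116, and VIM, ZEB1 and CDH2 were higher in PANC-1, while FN1 was not detected in either. Of the 34 p53 targets, 30 were detected on all 8 arrays, CYFIP2 on the HCT116 arrays only and TRIM22 on 3 of the HCT116 arrays. EDA2R and SPATA18 were detected on none, and their levels are not interpreted.

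Read against each array's own mock, the p53 targets were high together on 1 of the 8 arrays, that of miR-139-3p in HCT116. The HCT116 mocks were unequal, as given below. Against the mean mock of the line the medians were 0.71 for miR-139-3p, 0.63 for miR-143-3p and 0.47 for miR-143-5p. In this paragraph and the next, the values are against the array's own mock unless another reference is named. There 16 of 32 detected targets were at least 2-fold higher than mock, where 2.11% of all detected genes were, and 0 were at least 2-fold lower, where 2.82% of all genes were. The median of the targets was 1.03 on the log2 scale against 0.01 for all genes, and 31 of the 32 were above 0, beside 52.3% of all genes. The opposite strand of the same precursor, miR-139-5p, left 0 of 31 targets higher and 0 lower, with 0.0587% and 0.201% of all genes past the same fold, and a median of -0.08. In such bulk RNA, fewer cells of a kind and less RNA per cell cannot be told apart.

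The other 6 arrays had few or no targets past 2-fold. With miR-143-5p, 1 of 32 was higher and 1 lower, beside 0.356% and 1% of all genes. With miR-143-3p, 3 of 32 were higher and 0 lower, beside 0.517% and 0.925%. In PANC-1, miR-30c-5p had 3 of 30 targets higher and 0 lower, beside 0.747% and 0.445% of all genes. miR-30c-2-3p moved the most genes in that line, 1.71% higher and 4.14% lower, and had 0 targets higher and 2 lower. Neither strand of miR-30a had a target past 2-fold, while 0.306% of all genes were higher and 0.263% lower with miR-30a-5p, and 0.372% and 1.1% with miR-30a-3p. These counts depended on the scaling, since median centring in place of loess gave 3 higher for the 5p strand and 7 for the 3p strand, at medians of 0.40 and 0.66. The medians of all genes were then 0.15 and 0.30, so part of the shift was that of the whole array. The share of all genes past 2-fold under that centring is not given here. The medians of the targets on these 6 arrays lay between -0.18 and 0.24. In all, 20 of the 34 targets were past 2-fold on at least 1 array, 4 of them on 2 or more, and 13 on the miR-139-3p array only. No share over all genes is given for these pooled counts, so they only describe the targets.

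**Figure D1:**
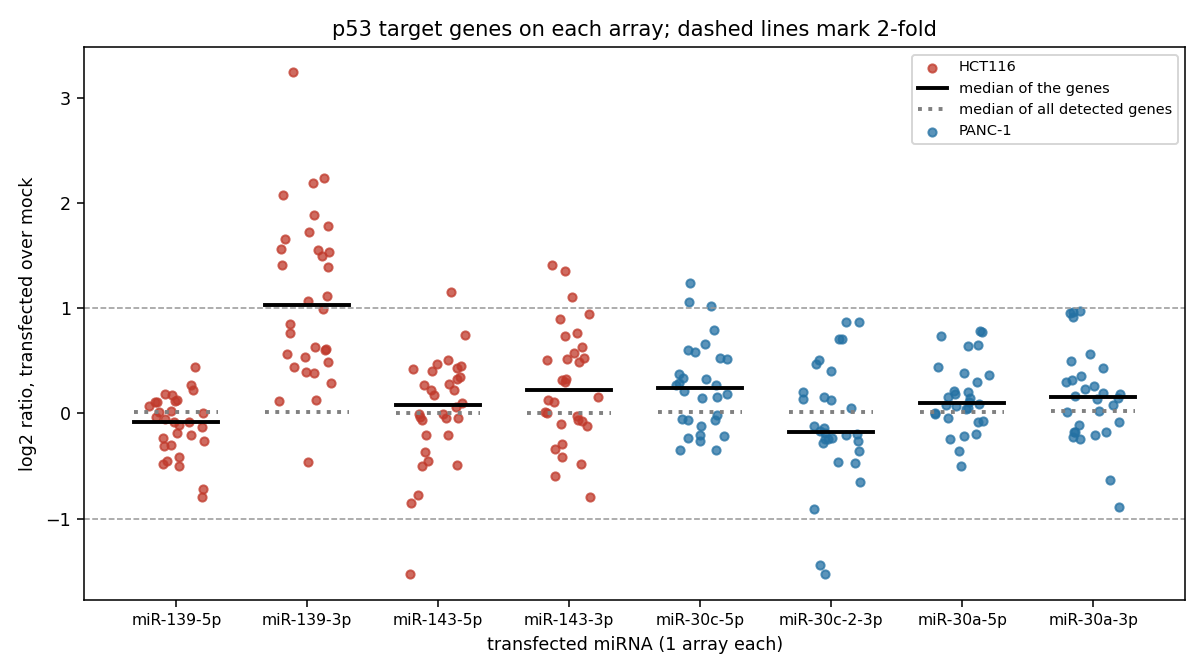
Log2 ratio of transfected over mock (vertical axis) of each detected p53 target gene (points) on each of the 8 arrays (horizontal axis), with the median of the targets (black bar) and of all detected genes (dotted bar). Dashed lines mark 2-fold, and the targets' median was 1.03 on the miR-139-3p array and between -0.18 and 0.24 on the others.

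In the values that follow, 4 log2 ratios in a row are given in the order in which the miRNA sequences are printed, first the 5p and then the 3p strand of miR-139 and of miR-143 for HCT116, and likewise the strands of miR-30c and miR-30a for PANC-1. A level is the log2 signal of the gene's brightest probe, and is not comparable between genes.

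Of the 5 targets that act in cell cycle arrest, CDKN1A, the inhibitor of cyclin-dependent kinases that p53 uses to stop the cycle, was at 0.12, 1.65, 1.16 and 1.35 in HCT116 and at 0.34, -0.19, 0.15 and -0.18 in PANC-1. It was past 2-fold on 3 of the 4 HCT116 arrays and on none of PANC-1. Its mock level in HCT116 was 6.64 and 6.85 beside the miR-139 strands and 7.67 and 7.72 beside those of miR-143, and its transfected level was 6.77, 8.50, 8.83 and 9.07. The smaller ratios of the miR-143 strands thus started from a higher mock level and ended at a higher transfected level. BTG2, an antiproliferative gene of the BTG/TOB family, was at -0.13, 1.88, -0.04 and 0.51 in HCT116 and at 0.60, 0.47, 0.77 and 0.43 in PANC-1, above mock on every PANC-1 array without reaching 2-fold.

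GADD45A, a stress protein that binds the mitotic kinase CDK1 and the replication clamp PCNA, stood just under the threshold with miR-139-3p (-0.04, 0.99, -0.20 and -0.03) and over it with miR-30c-5p (1.24, 0.05, 0.64 and 0.14 in PANC-1). PLK2, a polo-like kinase, went both ways in PANC-1, at 1.06, -1.53, 0.78 and 0.91, and was at -0.79, 0.39, -0.50 and -0.29 in HCT116. PLK3, its stress-responsive relative, was past 2-fold on no array, with extremes in PANC-1 of 0.66 for the guide strand of miR-30c and -0.89 for miR-30a-3p.

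Of the 3 genes that feed back on p53, 2 were past 2-fold, both with miR-139-3p alone, where 2.11% of all genes were higher. MDM2 was at 0.18, 1.56, 0.06 and -0.07 in HCT116 and at 0.18, -0.46, 0.21 and -0.23 in PANC-1. Its 2 further probes gave 1.43 and 1.92 on the miR-139-3p array. PPM1D, the phosphatase that removes the activating marks of the damage kinases from p53, was at 0.44, 1.72, 0.74 and 0.74 in HCT116 and at 0.27, 0.70, 0.30 and 0.26 in PANC-1, and so was above mock on all 8 arrays. CCNG1, a cyclin that recruits a phosphatase to MDM2, was at -0.30, 0.54, -0.78 and -0.79 in HCT116, and its second probe disagreed on both miR-143 arrays, as given below.

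Among the death receptors, FAS, the receptor of FAS ligand, was at -0.11, 1.41, 0.47 and 0.76 in HCT116 and between -0.35 and -0.06 in PANC-1. TNFRSF10B (DR5), a receptor of the death ligand TRAIL, was at 0.27, 1.78, 0.17 and 0.89 in HCT116 and at -0.21, -0.20, -0.50 and 0.32 in PANC-1. The other TRAIL receptor TNFRSF10A (DR4) was above mock by 0.63 with miR-139-3p and stayed within 0.45 of mock on the other HCT116 arrays. The 3 detected receptors were therefore above mock together with miR-139-3p, at a median of 1.41, and with miR-143-5p, where none was past 2-fold, but on no PANC-1 array.

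The genes of cell death and its control held both the highest value of the set and the 1 target below mock on the miR-139-3p array. TP53INP1, a protein of autophagy and apoptosis, was at -0.46, 3.24, -0.86 and 1.41 in HCT116 and at -0.27, 0.87, 0.08 and -0.18 in PANC-1. In HCT116 its brighter probe stood above mock with both 3p strands and below mock with both 5p strands. Its dimmer second probe gave 1.12 with miR-139-3p and 0.80 with miR-143-3p, so the size depended on the probe and the direction on those 2 arrays did not.

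TP53I3 (PIG3), an oxidoreductase linked to oxidative stress, was past 2-fold on 3 arrays and in both lines, at -0.41, 2.19, -0.01 and 1.11 in HCT116 and at 1.02, -0.12, 0.74 and 0.01 in PANC-1. A second probe gave 2.14, 1.18 and 1.02 on the arrays of miR-139-3p, miR-143-3p and miR-30c-5p. PHLDA3, which competes with AKT for membrane lipids, was at 0.11, 1.50, 0.34 and 0.01 in HCT116 and at 0.38, -0.14, 0.20 and 0.18 in PANC-1. AEN, an apoptosis-enhancing nuclease, was at 0.22, 1.11, 0.51 and 0.15 in HCT116 and at 0.27, -0.20, 0.04 and 0.16 in PANC-1. TRIAP1, a mitochondrial lipid-transfer protein that limits apoptosis, was at -0.09, 1.07, 0.43 and -0.34 in HCT116 and at 0.22, 0.71, 0.09 and 0.57 in PANC-1. CYFIP2, a subunit of an actin-regulating complex, reached 0.56 with miR-139-3p. PERP, a protein of desmosomes and of p53-dependent apoptosis, was at -0.46 there and within 0.28 of mock on the other 7 arrays.

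In the DNA repair group POLH, the polymerase that copies past ultraviolet damage, showed a log2 ratio of -0.21, 2.24, -0.06 and 0.13 in HCT116 and of -0.06, 0.14, 0.05 and 0.19 in PANC-1, so the 7 arrays other than that of miR-139-3p lay within 0.21 of mock. The size with miR-139-3p depended on the probe, since a dimmer one gave 0.87, under 2-fold, and the median over both was 1.56. DDB2, which recognises ultraviolet lesions, was at -0.24, 1.55, 0.22 and -0.48 in HCT116 and at -0.02, 0.40, -0.20 and -0.63 in PANC-1. The other 4 members, XPC (damage recognition), RRM2B (a subunit of ribonucleotide reductase), ASCC3 (a helicase) and RPS27L (a ribosomal protein paralogue), were above mock with miR-139-3p by 0.60 to 0.85 without reaching 2-fold.

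Of the genes of stress metabolism, autophagy and mitochondria, 3 of 4 detected were at least 2-fold higher with miR-139-3p, beside 2.11% of all genes. SESN1, a sestrin that restrains the growth kinase mTORC1, was at -0.0008, 2.08, -0.01 and 0.52 in HCT116 and at 0.52, 0.87, 0.44 and 0.50 in PANC-1. FDXR, the mitochondrial ferredoxin reductase, was at -0.50, 1.39, -0.45 and 0.95 in HCT116 and at -0.23, -0.91, -0.21 and 0.96 in PANC-1. DRAM1, a lysosomal regulator of autophagy, was at -0.48, 1.53, 0.28 and 0.63 in HCT116 and at 0.53, -0.47, 0.65 and 0.02 in PANC-1. FDXR and DRAM1 had the same order of HCT116 arrays, from the lowest at miR-139-5p through miR-143-5p and miR-143-3p to the highest at miR-139-3p. Other targets, such as TP53I3, BTG2 and FAS, had this order too, so it was not particular to these genes. SESN2, which unlike SESN1 is also an ATF4 target, was at 0.49 with miR-139-3p.

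Of the last 4 members 0 were past 2-fold on the miR-139-3p array, where 2.11% of all genes were higher and 2.82% lower. Their ratios on that array were 0.12 to 0.44. GDF15, a secreted stress cytokine, was at -0.72, 0.44, 0.40 and 0.33 in HCT116 and at 0.80, -1.45, 0.11 and 0.98 in PANC-1. NINJ1, a membrane protein that ruptures the plasma membrane of dying cells, was 2-fold or more lower on 1 array, at -0.18, 0.12, -1.52 and 0.32 in HCT116, and lay at -0.05, -0.66, 0.00 and 0.35 in PANC-1. ZMAT3, an RNA-binding protein, and TRIM22, an antiviral ubiquitin ligase, were dim throughout, with ratios within 0.40 of mock on every array.

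**Figure D2:**
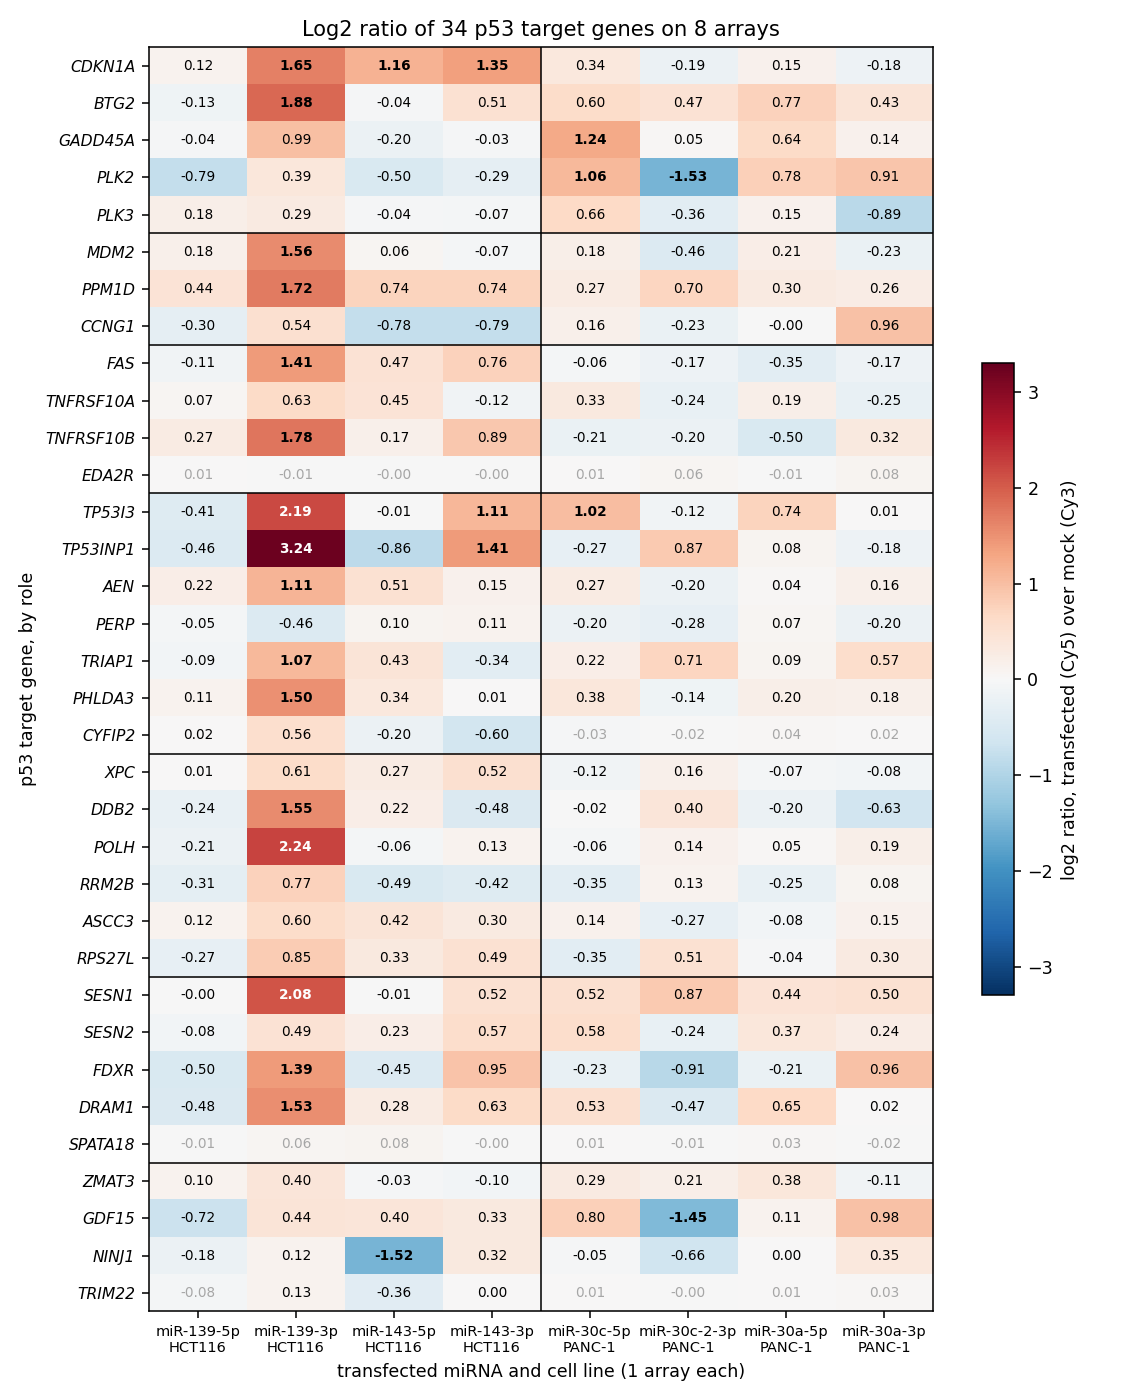
Log2 ratio of transfected over mock for each of the 34 p53 target genes (rows, grouped by role and separated by lines) on each of the 8 arrays (columns), with bold values at 2-fold or more and grey values where the probe was not well above background on that array. The miR-139-3p column holds 16 of the 26 bold values, and TP53INP1 has the highest at 3.24.

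The members nearest to the threshold on either side were GADD45A at 0.99 and TRIAP1 at 1.07 with miR-139-3p, TP53I3 at 1.02 and PLK2 at 1.06 with miR-30c-5p, and, below it, GDF15 at 0.98, CCNG1 and FDXR at 0.96 with miR-30a-3p and FDXR at 0.95 with miR-143-3p. At a fold of 1.5, 22 targets were higher with miR-139-3p and 0 lower, beside 7.41% and 8.18% of all genes. With miR-143-3p 8 were higher and 2 lower at that fold, beside 3.18% and 4.74%, and with miR-139-5p 0 were higher and 2 lower, beside 0.753% and 1.1%.

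Outside the chosen 34, the same reading was taken from other lists of p53 biology. Among regulators of the pathway, MDM4, the MDM2 relative that blocks p53's activation domain, was higher with miR-139-3p (1.20) and at -0.63 and -0.44 with the strands of miR-143. CHEK1, a checkpoint kinase, was at -1.10 and HIPK2, a kinase that phosphorylates p53, at -0.79 with miR-139-3p.

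Of 22 detected further p53 targets, 6 were at least 2-fold higher with miR-139-3p and 1 was lower (KITLG, a growth factor, at -1.25). The shares of all genes were 2.11% and 2.82%, and the median of the 22 was 0.52. The highest were BBC3 (PUMA, which triggers mitochondrial apoptosis) at 2.60, C12orf5 (now TIGAR, a brake on glycolysis) at 1.79 and the decoy receptor TNFRSF10D at 1.57. BAX, the pore-forming partner of that pathway, was at 0.02 on the same array, so the further targets did not all follow the leading ones. With miR-139-5p, 0 of 21 were past 2-fold, beside 0.0587% of all genes higher and 0.201% lower. With miR-143-3p, 1 of 22 was higher, ABHD4 at 1.03, beside 0.517% of all genes, with TNFRSF10C at 0.93 and SFN at 0.85. On the miR-30c-2-3p array in PANC-1, TNFRSF10D was at 1.79 and LIF, a cytokine, at -1.14, and BAX was at -0.98.

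Of 23 genes repressed through p53 and DREAM, 20 were below mock with miR-139-3p, where 52.3% of all genes were above it, at a median of -0.38. Of these 20, 4 were at least 2-fold lower, beside 2.82% of all genes. MCM2, a subunit of the replicative helicase, was at -2.25, CDC20, an activator of the anaphase ligase, at -1.17 and the helicase BLM at -1.12. The study also lists MCM2 among its candidate targets of miR-139-3p, picked in part on this array. With miR-143-3p all 23 were below mock, where 51.4% of all genes were above it, and 5 were 2-fold lower, beside 0.925%. These were led by the mitotic genes CDK1 at -1.38, CCNB1 at -1.25 and BUB1 at -1.20. The median of the 23 was -0.70 on this array, where 3 of the 32 detected p53 targets were 2-fold higher, beside 0.517% of all genes. With miR-139-5p the median was 0.01 and 0 were past 2-fold. The HCT116 mocks differed here too. All 23 were lower in the mock of the miR-143 arrays than in that of the miR-139 arrays, from -0.10 for EXO1 to -0.98 for CENPF.

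Stress and interferon genes were read beside these, because some p53 targets respond to other stimuli too. With miR-139-3p, 0 of 11 ATF4 targets were past 2-fold in either direction, beside 2.11% of all genes higher and 2.82% lower. Their median was -0.53, with CHAC1 at -0.92, DDIT4 at -0.86 and ATF3 at 0.80. Of 12 interferon genes, 2 were higher there, beside 2.11% of all genes, IFIT1 at 1.68 and IRF7 at 1.64, with ISG15 at 0.96. With miR-143-3p 2 of 13 were higher, beside 0.517% of all genes, IFI6 at 1.21 and OASL at 1.18. The medians of the interferon genes were 0.55 and 0.53 on those arrays, and neither 5p strand in HCT116 had one past 2-fold. The HCT116 mocks were unequal for such genes too. With miR-139-3p, the transfected levels of IFIT1 (9.15) and ISG15 (12.25) lay under both miR-143 mock levels. Those were 9.44 and 9.52 for IFIT1, and 12.67 and 12.71 for ISG15. ATF3 ended at 9.47, under its 11.61 and 11.57, whereas IRF7 ended at 9.45, above its 8.10 and 8.28. The part of the interferon genes' response in the values of the p53 targets was not tested.

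The lower GDF15 and PLK2 of the miR-30c-2-3p array came with lower ATF4 targets and interferon genes. There 4 of 11 ATF4 targets were at least 2-fold lower, beside 4.14% of all genes, with DDIT4 at -2.17 and ASNS at -1.92. In the other direction 1 was higher, ATF3 at 1.84, beside 1.71% of all genes. Of 12 interferon genes, 3 were lower, beside the same 4.14% of all genes, OASL at -2.41, IFIT2 at -2.15 and IFIT3 at -1.95. Whether these moved with GDF15 and PLK2 for a common reason was not tested.

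For a view of the DNA that p53 could bind at these genes, the RefSeq promoter windows (250 bases before to 50 after a transcription start, GRCh38.p14) were searched for the p53 response element, as 2 half-sites of 10 bases with the central CNNG core holding A or T at both N positions, a spacer of 0 or 1 base and at most 3 mismatches outside the cores. The half-site reads the same on both strands, so 1 search covers both. A window was in the table for 26 of the 34 targets, and 6 of these 26 (23.1%) held an element, against 1.02% of the 27305 genes with a window and 0.820% of all 35116 windows. With a spacer of up to 13 bases the shares were 23.1% and 5.53%. A match is a description of the letters and not evidence of binding, and the windows leave out the more distant elements of genes such as CDKN1A.

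The promoters of SESN1, FAS and AEN are printed up to the base before the start, with the element in capitals, since these genes were past 2-fold with miR-139-3p.
SESN1, chr6:109008989-109009238, minus strand: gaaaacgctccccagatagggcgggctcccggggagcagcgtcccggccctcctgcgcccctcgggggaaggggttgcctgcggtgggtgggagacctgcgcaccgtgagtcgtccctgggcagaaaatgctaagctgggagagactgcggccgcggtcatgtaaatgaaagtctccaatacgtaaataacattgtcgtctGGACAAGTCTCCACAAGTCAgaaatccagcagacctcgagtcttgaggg
FAS, chr10:88991181-88991430, plus strand: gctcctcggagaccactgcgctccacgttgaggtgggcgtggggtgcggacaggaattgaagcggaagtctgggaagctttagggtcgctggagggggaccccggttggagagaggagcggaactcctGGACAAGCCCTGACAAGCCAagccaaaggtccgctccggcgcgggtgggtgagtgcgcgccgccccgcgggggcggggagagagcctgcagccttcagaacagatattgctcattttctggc
AEN, chr15:88621090-88621339, plus strand: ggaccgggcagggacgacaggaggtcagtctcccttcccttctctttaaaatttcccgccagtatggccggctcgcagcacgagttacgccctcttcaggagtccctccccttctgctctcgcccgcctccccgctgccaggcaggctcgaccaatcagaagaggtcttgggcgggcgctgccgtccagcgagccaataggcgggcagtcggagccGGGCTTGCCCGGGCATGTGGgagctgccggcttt
The element had 3 mismatches in SESN1, 2 in FAS and 2 in AEN. In DDB2 it had 0 mismatches with a spacer of 1 base and began 5 bases after the start, and in RPS27L and GDF15 it had 3 mismatches each. Windows of 30 bases show these.
DDB2, chr11:47214975-47215004, plus strand: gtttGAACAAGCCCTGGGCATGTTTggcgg
RPS27L, chr15:63157522-63157551, minus strand: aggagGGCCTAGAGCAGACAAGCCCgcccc
GDF15, chr19:18386178-18386207, plus strand: acctgcacAGCCATGCCCGGGCAAGAACtc
With miR-139-3p, 4 of the 6 targets with an element and 9 of the 20 without one in the window were at least 2-fold higher. So were 3 of the 8 without a window, beside 2.11% of all genes. Over the 6, the ratios did not follow the number of mismatches. DDB2, with 0, was at 1.55, and FAS and AEN, with 2 each, were at 1.41 and 1.11. SESN1, RPS27L and GDF15, with 3 each, were at 2.08, 0.85 and 0.44.

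The mock levels of the p53 targets were themselves not the same on the arrays of 1 line. Mock channels on the pair of arrays of 1 precursor were alike, with 0 to 11 genes of all detected at least 2-fold apart, whereas HCT116 mock channels of the miR-139 and the miR-143 arrays had 196 to 208 genes that far apart, with 6 to 8 targets among them. In PANC-1 the gap was smaller, at 38 to 45 genes between the miR-30c and miR-30a arrays, with 0 or 1 target. The labels do not say which arrays shared a mock culture, and from these values the mock of each precursor was taken as 1 extract, 2 per line. All 32 detected p53 targets were higher in the HCT116 mock of the miR-143 arrays than in that of the miR-139 arrays, by a median of 0.56 on the log2 scale against -0.01 for all genes. Of these, 7 were at least 2-fold higher, where 0.646% of all genes were, and 0 lower, where 0.303% were.

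PLK2 differed most between the HCT116 mocks, at 9.98 beside the miR-139 strands and 11.96 beside those of miR-143, a difference of 1.98. TP53I3 followed at 9.04 and 10.51, GADD45A at 8.69 and 10.07, and TP53INP1 at 7.21 and 8.51. CDKN1A stood at 6.75 and 7.69. The smallest difference was that of ASCC3, at 0.16. In PANC-1 the mock of the miR-30a arrays was above that of the miR-30c arrays for 20 of 30 targets, by a median of 0.07, and 0 were 2-fold apart in either direction, beside 0.133% of all genes higher and 0.0541% lower.

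The unequal mocks bear on the ratios, so the transfected level (mock level plus log2 ratio) was also set against all 4 mock levels of its line, first in HCT116. With miR-139-3p, 22 of 32 targets were above all 4, where 39.7% of all genes were, and these 22 included each of the 16 past 2-fold. GADD45A was not among them, since its transfected level of 9.69 lay under the 10.07 of both miR-143 mock channels. With miR-143-5p, 17 of 32 were above all 4 mock levels, beside 32.7% of all genes, and with miR-143-3p, 20 of 32, beside 35.1%. The miR-143 mock was the higher one for all 32 targets, so these 2 counts are no separate check. They are close to the counts above the array's own mock, 17 and 21. With miR-139-5p, 1 of 31 was above all 4 (PPM1D, beside 31.9% of all genes) and 17 were below all 4, beside 23.8%. The latter is close to the 19 below that array's own, lower mock. In PANC-1, 16 of 30 targets were above all 4 mock levels and 8 below with miR-30c-5p (39.4% and 29.8% of all genes). With miR-30c-2-3p 11 were above and 18 below (42.5% and 37.7%). The counts were 16 and 5 with miR-30a-5p (35.6% and 31.8%), and 20 and 9 with miR-30a-3p (40.4% and 30.9%).

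When the mean of all 4 mock channels of the line replaced the array's own mock, the order of the HCT116 arrays by their median stayed, miR-139-3p stood closer to both miR-143 strands, and miR-139-5p stood further from them. For miR-139-3p the median of the targets became 0.71, for miR-143-3p 0.63, that for miR-143-5p 0.47, while miR-139-5p stood at -0.43. The number at least 2-fold higher became 13 with miR-139-3p and 7 with miR-143-3p, and 4 were 2-fold lower with miR-139-5p. No share over all genes is given for these counts. All 32 detected targets were higher in the miR-143 mock. The averaging thus lowered the miR-139 arrays and raised the miR-143 arrays by construction.

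**Figure D3:**
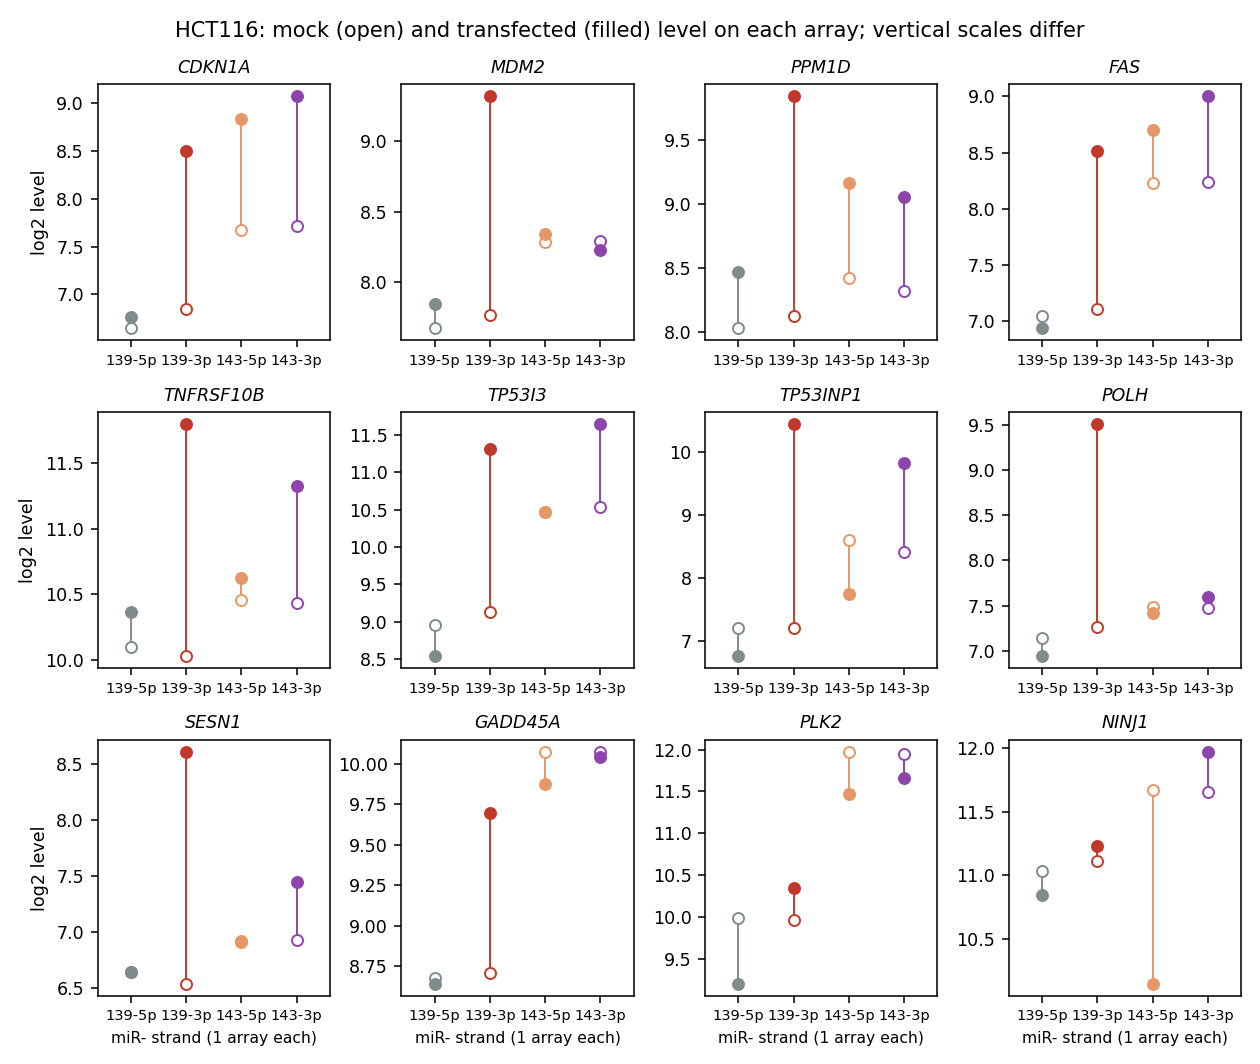
Log2 level of 12 p53 target genes in HCT116 (vertical axis, 1 scale per panel) in the mock channel (open) and the transfected channel (filled) of the 4 arrays (horizontal axis). The mock levels of CDKN1A were 6.64 and 6.85 in the panel's miR-139 part and 7.67 and 7.72 in its miR-143 part, and the panels show the same step for TP53I3, TP53INP1, GADD45A and PLK2.

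Arrays that shared no mock extract were set side by side over the detected targets, as a description across genes, which are not replicates. The 3 targets past 2-fold with miR-143-3p, CDKN1A, TP53I3 and TP53INP1, were all among the 16 of miR-139-3p, which is 100% of the first list and 18.8% of the second. The overlap over all detected genes is not given here, so this one is not read as a trait of the targets. Pearson's r across the 32 targets was 0.55 between miR-139-3p and miR-143-3p (0.28 over all detected genes) and 0.12 between miR-139-3p and miR-143-5p (0.17 over all). Across the 31 targets detected on both, it was 0.43 between miR-139-5p and miR-143-5p (0.27 over all) and -0.02 between miR-139-5p and miR-143-3p (0.19 over all). In PANC-1 the guide strands miR-30c-5p and miR-30a-5p, with 1 seed, had r = 0.81 over 30 targets and 0.89 over all genes, and 24 of the 30 had the same sign. GADD45A, PLK2 and TP53I3, the targets past 2-fold with miR-30c-5p, were at 0.64, 0.78 and 0.74 with miR-30a-5p.

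Where a target had several detected probes, their ratios were compared, since the array can read different parts of a transcript. On the miR-139 arrays all 14 probe pairs had the same sign on both arrays, but with miR-139-3p 5 of the 14 were over 0.5 apart. There a further probe was under 2-fold for 4 of the 16 targets counted as higher, at 0.60 for FAS (whose other probe gave 1.45), 0.67 for PHLDA3, 0.87 for POLH and 0.88 for AEN. On each miR-143 array 4 of the 14 pairs had opposite signs and were over 0.5 apart. For CCNG1 the used probe (chr5:162871009-162871068, hg19) gave -0.78 and -0.79 on the miR-143-5p and miR-143-3p arrays, and the probe 5′ of it on the same strand (chr5:162866292-162866351) gave 0.52 and 0.36. CYFIP2 gave -0.20 and -0.60 by one probe (chr5:156822135-156822194) and 0.44 and 0.25 by the other (chr5:156786025-156786084). RRM2B gave -0.49 and -0.42 against 0.37 and 0.24. DDB2 was split on the miR-143-3p array (-0.48 by its probe at chr11:47260623-47260682 and 0.06 by that at chr11:47238539-47238598), and TP53INP1 on the miR-143-5p array (-0.86 and 0.06). The direction of these 5 genes on the miR-143 arrays named here is therefore not settled by the array. Exon and UTR annotation of the probes was not used here.

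**Figure D4:**
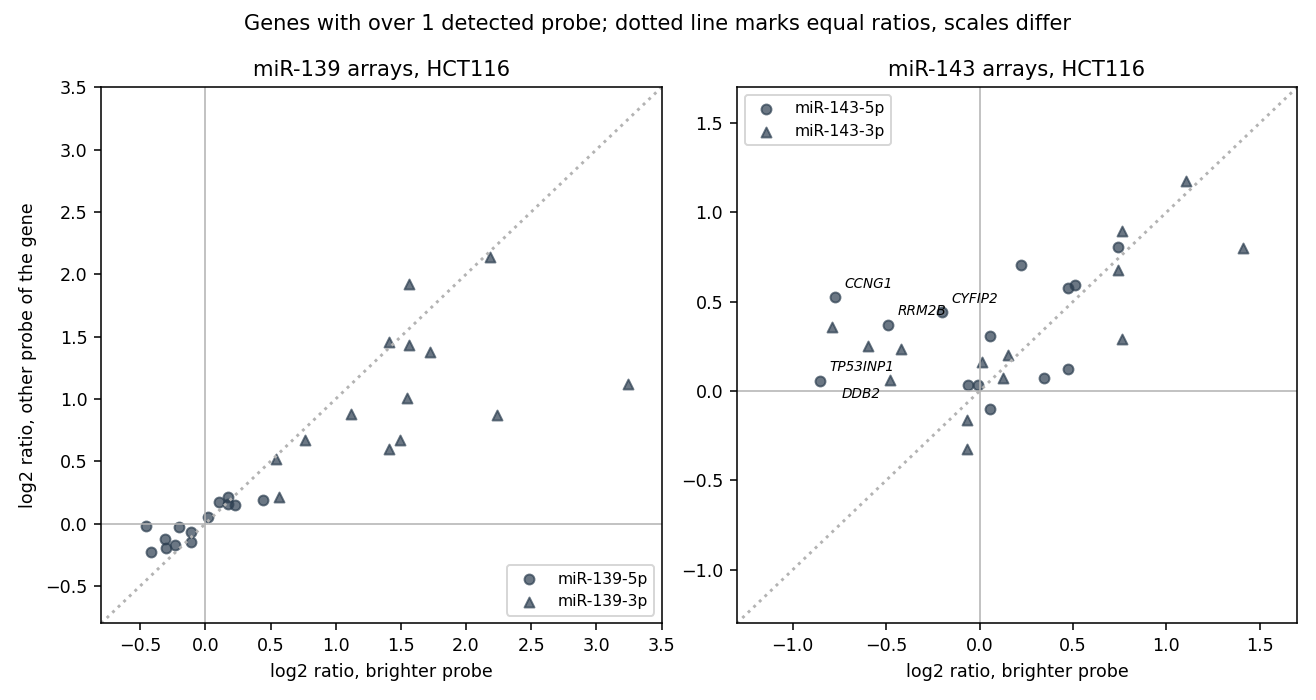
Log2 ratio of the brightest probe of a p53 target (horizontal axis) against that of another detected probe of the same gene (vertical axis) on the miR-139 arrays (left) and the miR-143 arrays (right), circles for 5p and triangles for 3p strands. No pair on the left has opposite signs, while 4 of 14 pairs on each miR-143 array have opposite signs over 0.5 apart, among them CCNG1 and RRM2B.

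To compare the resting levels of the p53 targets between the lines, the mock levels of HCT116 and PANC-1 were tested in limma, with 2 mock extracts per line. Over 19505 genes, 5.75% were higher in HCT116 and 5.88% higher in PANC-1 at an adjusted p under 0.05 and a fold of 2. Of the 31 targets tested, 11 were higher in HCT116 and 1 in PANC-1, and 30 had a difference above 0, with a median of 0.83 against 0.01 for all genes. The lines differ in tissue of origin, donor and genotype, which cannot be told apart here.

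FDXR showed the largest called difference, with a mock level of 12.54 ± 0.38 (SD, n = 2 extracts) in HCT116 and 9.81 ± 0.30 in PANC-1, a difference of 2.73 ± 0.26 (SE) at an adjusted p of 0.0056 in limma. BTG2 differed by 2.59 ± 0.40 (adjusted p = 0.0151, limma) and GDF15 by 2.37 ± 0.49 (adjusted p = 0.0291, limma). CYFIP2 was well above background on all 4 HCT116 channels and on none of PANC-1, and was at least 3.74-fold higher in HCT116. The other 7 called higher in HCT116 were PLK3, PPM1D, RPS27L, TNFRSF10B, TNFRSF10A, PHLDA3 and MDM2, with differences from 1.67 for PLK3 down to 1.27 for MDM2. PERP was the exception, at 11.20 ± 0.27 in HCT116 and 12.74 ± 0.09 in PANC-1, a difference of -1.54 ± 0.16 (adjusted p = 0.0065, limma).

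CDKN1A had a mean level of 7.22 ± 0.67 in HCT116 and 6.05 ± 0.06 in PANC-1, and its difference of 1.17 ± 0.35 missed the threshold (adjusted p = 0.0673, limma). TP53INP1 missed it as well, at 1.46 ± 0.48 (adjusted p = 0.0811, limma). Both were among the genes that differed between the 2 HCT116 mock extracts, which widened their error. TP53I3, GADD45A and PLK2 lay within 0.37 of equal between the lines, with both PANC-1 extracts between those of HCT116. MDM4 differed by 0.13 ± 0.16 (adjusted p = 0.559, limma).

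The number of targets called between the lines changed when a single extract was left out. A line then had a lone extract, and no share over all genes is given for those fits. The change is therefore not read as a trait of the targets, and only differences are given. Without the mock of the miR-139 arrays the difference was 3.00 for FDXR and -1.35 for PERP. Without that of the miR-143 arrays it was 2.46 for FDXR and -1.73 for PERP. Since each line had 2 extracts, the p-values measure the spread between these few samples, which may be technical.

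**Figure D5:**
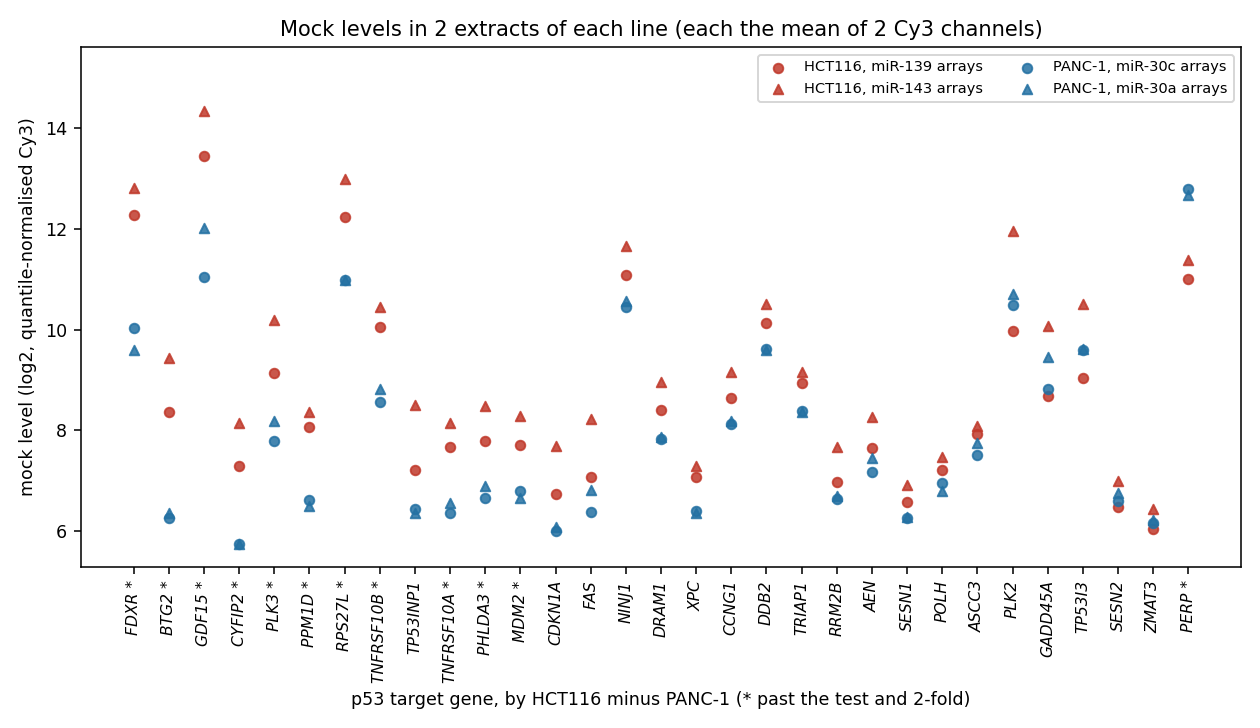
Mock level (log2, vertical axis) of the 31 tested p53 target genes (horizontal axis, ordered by HCT116 minus PANC-1) in the 2 mock extracts of HCT116 (red) and of PANC-1 (blue), each the mean of 2 Cy3 channels. Stars mark the 12 genes past the test and 2-fold, 11 higher in HCT116 and PERP higher in PANC-1, and for every gene the HCT116 triangle (miR-143 arrays) lies above the HCT116 circle (miR-139 arrays).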

How the data were processed

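Gene expression was measured on 8 two-colour Agilent arrays, and samples were grouped by the miRNA and line in the labels. Per the file headers, Feature Extraction 11.5.1.1 gave the mean intensity and median background intensity of each spot in both channels, with probe positions on hg19. The deposited log10 ratio is that of the software's processed Cy5 over Cy3 signals, which the authors deposited unchanged as their value table. It was converted to log2 for an alternative.

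The mean and background intensities were taken into limma 3.58.1 (R 4.3.3). Background was corrected by normexp with an offset of 50, which pulls the log2 ratios of dim genes towards 0, control spots were removed, and ratios were normalised by loess within each array. Outlier spots were left out, the spots of a probe were averaged, and a gene was read on its brightest probe. No member spot was saturated. With 1 array per miRNA a fixed 2-fold rule replaced a test. Mock levels were Cy3 signals after quantile normalisation, averaged over the 2 arrays of a precursor, and tested with lmFit and eBayes and Benjamini-Hochberg adjustment over all genes well above background. The fit was tested on simulated data with known changes. A bound against a line at background used the lowest level called well above background there. Tables were made in Python 3.11.15 with pandas 2.3.3.

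The 34 genes, the gene lists, the rules and the tests were chosen with earlier results of these data known. A target past 2-fold on an array was named with its values on all 8, MDM4 was named on the HCT116 arrays, and genes of the other lists were taken from the 3 furthest from mock on an array. KITLG, BAX on the miR-139-3p array and the members near the threshold were picked after their values were seen. Of the list names, 1 (TIGAR) was matched through a synonym. A regulator of the lists is not reported here. No column was left without a sample. Alternatives for background correction, centring, probe choice, filter and mock reference are given in the closing section.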

Additional observations from a re-analysis of the deposited data

How the results depend on the processing

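The counts and medians of the p53 targets were recomputed without background correction, with a normexp offset of 1, from the scanner log ratio, with median centring, with the median over probes, with dim probes kept, and against the mean mock of the line. Together with the counts between the mock lines these made 190 values, of which 148 stayed within 1.5 times (counts) or within the spread between mock channels (medians). A single median changed sign, that of miR-139-5p. For the other 42 the cause was not tested, beyond what each alternative changes by construction. On the miR-139-3p array the count of higher targets ranged from 13 to 20, and its median became 1.27 with the scanner log ratio and 0.71 with the mean mock. No share over all genes is given for the counts under the alternatives, so they only describe the targets.

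With the mean mock of the line, the median was -0.43 and 4 targets were lower on the miR-139-5p array, 2 were higher with a median of 0.47 on the miR-143-5p array, and 7 were higher with a median of 0.63 on the miR-143-3p array. In PANC-1 it gave 1 higher target each on the miR-30c-5p, miR-30a-5p and miR-30a-3p arrays. With median centring the medians became 0.13 for miR-139-5p, 0.30 for miR-143-5p, 0.52 for miR-30c-5p, -0.0305 for miR-30c-2-3p, 0.40 for miR-30a-5p and 0.66 for miR-30a-3p, and the higher targets were 5 for miR-30c-5p, 3 for miR-30a-5p and 7 for miR-30a-3p. That centring moved the median of all genes to as much as 0.30, on the miR-30a-3p array, and relative to all genes the median of the targets on the miR-139-5p array then was 0.03, so its sign depended on the scaling.

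A normexp offset of 1 and the scanner log ratio each gave 3 lower targets for miR-143-5p, 6 higher for miR-30c-5p, 1 higher for miR-30a-5p and 1 lower for miR-30a-3p. For miR-30c-2-3p the higher targets were 3 with the offset of 1, 4 with the scanner log ratio and 2 without background correction, which also gave a median of -0.30 there, 1 higher target for miR-30a-5p and 1 lower for miR-30a-3p. For miR-30a-3p the higher targets were 1 with the offset of 1 and 2 with the scanner log ratio. Of the 26 values past 2-fold, all 26 stayed past it in every alternative except the median over probes (25) and the mean mock (21).

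Between the mock lines, 5 targets were called higher in HCT116 without the filter on dim probes, and 9 to 16 under the other alternatives that kept all extracts. Leaving out 1 extract at a time gave 0 to 18 higher in HCT116 and 0 to 1 higher in PANC-1, the lone extract of a line then being assumed to vary like the other line's. No paired analysis was possible because each miRNA was on 1 array, so the groups compared share fewer than 2 replicate numbers. The number of arrays and the signal over background limit the precision.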
